A study of Caenorhabditis elegans with 2 samples.

Results

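In YBT7 worms the X chromosome is split into an internal segment, from its middle, and a linear segment, in which the left and the right end of X are joined, and described here are the linear genes that the wild-type gonad expresses. A gene was taken when the deposited table places it wholly to the left of a border near 7.77 Mb or wholly to the right of a border near 16.5 Mb on X (assembly WBcel235) and when the wild-type library holds at least 20 raw counts of it. This gave 268 of the 2994 genes of the linear segment and of the 46739 genes in the table, 234 on the left end and 34 on the right end. Gonads were dissected from YBT7 hermaphrodites, which carry the alleles deg-1(huj32) and linc-20(huj2) and hujCf1, and from N2 wild-type hermaphrodites, both 24 h after the L4 stage, and each strain gave 1 library. YBT7 is 1 outcrossed line obtained with Cas9, so the split of X cannot be told apart here from other changes that this line may carry. The source label of the YBT7 sample also holds the words wild type, whereas its title and genotype name YBT7. The gene linc-20, which carries deletions in YBT7, had 0 counts in YBT7 and 4 in wild type, too few to settle the label.

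In the hermaphrodite germline both X chromosomes are largely silent from the mitotic zone until late pachytene, and X-linked genes are transcribed mainly in later oogenesis and in the somatic cells of the gonad. Genes needed in early germ cells are therefore scarce on X, and the X-linked genes that a gonad does express include many for oocyte growth, secretion and metabolism. The comparison of YBT7 with wild-type gonads asks whether transcription from X changes when the chromosome is no longer continuous. The wild-type count chose the genes and is also the lower part of every fold change below, so folds are descriptions. There was 1 library per strain, which leaves no replicate check and no test between strains.

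The YBT7 library holds 4525439 counts and the wild-type library 2873065. Counts were divided by size factors of 1.225 for YBT7 and 0.816 for wild type to give normalized counts, and 20 wild-type counts correspond to 24.5 normalized counts. Intervals are exact conditional 95% intervals that cover the counting of reads alone, not variation between animals, and molecular identifiers were not stated to have been collapsed. Markers of some other tissues differed between the libraries. Calls follow the rule given below, by which 9.55% of all genes with a mean normalized count above 5 were called higher and 1.25% lower. The 6 vitellogenin genes, for yolk proteins made in the intestine, summed to 43404 counts in YBT7 and 2415 in wild type. Intestine markers (11 of 15 measured called higher) summed to 8559 and 550 counts, with 3 of 18 at 0 in wild type, and body wall muscle markers (12 of 18 called higher) to 9791 and 1495, with 1 of 19 at 0. Cuticle markers (5 of 8 called higher) summed to 7484 in YBT7 and 460 in wild type. Germline identity and oocyte markers, which define the labelled tissue, were all detected in both libraries and summed to 22767 and 81949 normalized counts in YBT7, against 28550 and 87541 in wild type. Their median log2 folds were -0.36 and -0.28, with 1 of 21 germline identity markers called lower and 0 of 29 oocyte markers called. Sperm markers (19 of 31 called lower) summed to 248 counts in YBT7 and 805 in wild type. Pharynx markers (0 of 6 called, median log2 fold -0.14) and somatic gonad markers (0 of 6, 0.22) differed little. Of 10 neuronal markers 2 were called higher, and their median log2 fold was 0.83. The 3 coelomocyte markers summed to 22 counts in YBT7 and 0 in wild type, too few to be measured. In bulk RNA, more cells of a type cannot be told apart from more RNA per cell, and the part of these tissues in the values below was not tested.

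Of the 268 genes, 261 are protein-coding in the Ensembl annotation, 3 are noncoding RNA genes, 2 are long intergenic noncoding RNA genes, 1 is a snoRNA gene and 1 a pseudogene. The 261 make up 20.1% of the 1299 protein-coding genes of the linear segment (exact binomial interval 17.9 to 22.4%, over genes taken as independent draws). On the internal segment 19.4% of 1364 protein-coding genes reached the same wild-type count, and on the autosomes 31.5% of 16988 did. The share was 19.6% on the left end and 24.4% on the right end (17.5 to 32.6%, 33 of 135 genes). Expressed genes were longer than the rest: their median exonic length was 1.81 kb, against 1.25 kb for the other protein-coding genes of the segment, and 47.5% of them lie on the plus strand. In wild type their median was 52 raw counts, and 127 had fewer than 50, whereas the median autosomal gene above the same minimum had 206 counts. Just inside the minimum, mai-1, C15B12.6 and pifk-1 had 31, 14 and 17 counts in YBT7, against 20 each in wild type. Just outside, hsp-43, lbp-2 and C05E11.3 had 201, 540 and 23 counts in YBT7, against 19 each in wild type. The minimum thus leaves out genes, such as lbp-2, whose YBT7 level is above that of most genes inside it.

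YBT7 held 146697 counts of the 268 genes and wild type 47493, which is 3.24% of the YBT7 library (3.23 to 3.26%) and 1.65% of the wild-type library (1.64 to 1.67%). A few genes carried this difference. The 4 small noncoding RNA genes held 43.9% of the YBT7 counts of the set and 42.6% of its wild-type counts, and the 5 vitellogenin genes 22.5% and 3.89%. Without both groups the share of the library was 1.09% in YBT7 and 0.885% in wild type, values that were computed after these groups had been seen. Under this choice of genes by wild-type count the median log2 fold was -0.24, with 172 of the 268 genes below 0 and 96 above. With genes chosen by a mean of at least 25 normalized counts over both libraries, the linear median was -0.0316 and the autosomal one -0.0963. Whether the typical gene changed is therefore not read from these medians. The median of all 5991 genes with at least 20 wild-type counts was -0.13 and that of the autosomal ones -0.12. Across genes the log2 counts of the libraries had a Pearson r of 0.82 (n = 268, a description in which all points share the same pair of libraries).

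By the rule of the study's methods, a gene is called when its mean normalized count is above 5 and its log2 fold, in either direction, exceeds the sum of 1 and of 5 divided by the root of the mean. Of the 268 genes 27 were called higher in YBT7 (10.07%) and 1 lower (0.373%). Among all genes with a mean above 5, 9.55% were called higher and 1.25% lower, and among all genes with at least 20 wild-type counts 2.44% and 1.07%. With a fixed limit of 2-fold, 35 genes were higher and 19 lower (13.1% and 7.09%), beside 3.56% and 3.36% of all genes with the same minimum in wild type and 17.7% and 4.80% of those with a mean above 5. The wild-type count that chose the genes is part of each of these calls, so nothing is read from their shares. With genes chosen by a mean of at least 25 normalized counts over both libraries, 66 of 308 linear genes were called higher (21.4%). Of the internal genes 16.4% and of the autosomal genes 4.97% were. That mean includes the YBT7 count, so genes low in wild type enter through a high YBT7 level. Nothing is read from these shares either. The 27 genes called higher had a median fold of 4.72 and ran from 2.08 to 33.5. The intervals of 58 genes lay above 1 (21.6%) and those of 68 below 1 (25.4%), beside 15.1% and 33.2% of all genes with the same minimum. The others could not be set apart from an equal level at this depth. With 20 to 49 wild-type counts, 86 of 127 intervals spanned 1. In the plot of levels 172 genes lie under the diagonal, and 96 lie above it, from near-equal levels to the largest folds.

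**Figure D1:**
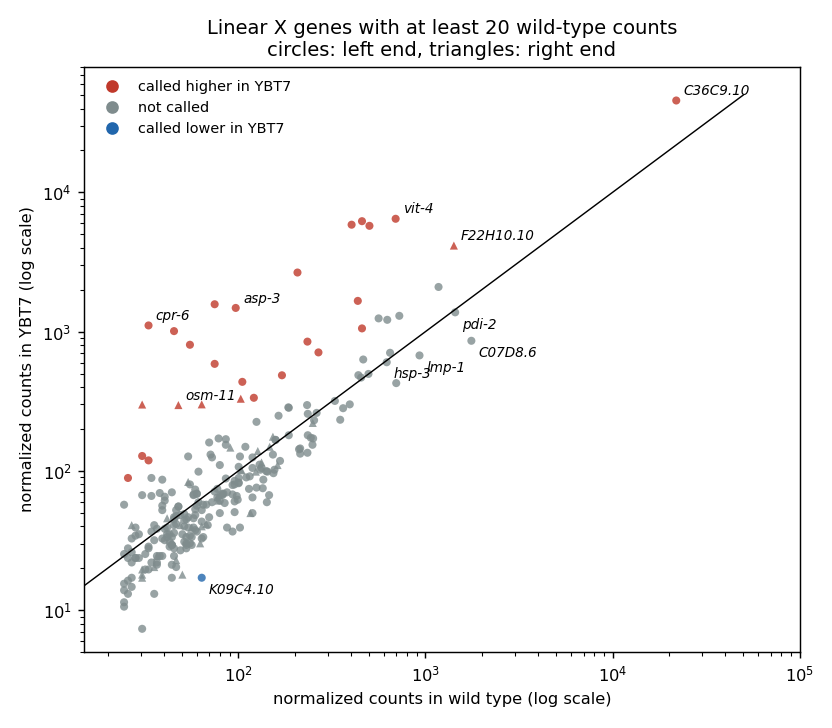
Normalized counts in YBT7 (vertical, log scale) against wild type (horizontal, log scale) for the 268 linear X genes with at least 20 wild-type counts, 1 library per strain; circles are genes of the left end, triangles of the right end, and the line marks equal levels. The 27 genes called higher lie above the line from 25.7 to 21913 normalized wild-type counts, and K09C4.10 is the only gene called lower.

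The gene with the most counts in both libraries was C36C9.10 (WBGene00219849, X from 1681752 to 1681886, plus strand), a noncoding RNA gene of 135 bases on the left end. It had 55946 raw counts in YBT7 and 17892 in wild type, 2.08-fold (interval 2.05 to 2.12), a call that ended when libraries were scaled by total counts (log2 fold 0.99). F22H10.10, a noncoding RNA gene of 168 bases on the right end (X from 16698131 to 16698298), had 5083 counts in YBT7 and 1159 in wild type and rose 2.92-fold. The snoRNA gene C14E2.12 had 869 and 219 counts and rose 2.65-fold, and C05D9.12, a noncoding RNA gene of 129 bases, had 2563 and 959, 1.78-fold, without a call. Small nucleolar RNAs guide the modification of other RNAs and are not typical poly(A) transcripts, whereas the libraries were primed with poly(T). In YBT7 counts C36C9.10 ranked 1 among the 268 genes, F22H10.10 ranked 6, C05D9.12 ranked 8 and C14E2.12 ranked 22.

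The genes whose fold lay closest to 1 with the narrowest intervals were pdi-2, hsp-3, trap-2, got-2.2 and pccb-1, which were chosen for this. The gene pdi-2, for a protein disulfide isomerase that also serves in prolyl 4-hydroxylase, had 1685 counts in YBT7 and 1177 in wild type, which is 1376 and 1442 normalized counts and a fold of 0.954 (interval 0.885 to 1.03). The gene hsp-3, for a BiP chaperone of the endoplasmic reticulum, had 738 and 507 counts (fold 0.970, 0.865 to 1.09), and trap-2, for a subunit of the translocon-associated complex, had 609 and 405 (log2 fold 0.00356, fold interval 0.883 to 1.14). The mitochondrial aspartate aminotransferase gene got-2.2 had 573 counts in YBT7 and 370 in wild type (fold 1.03, 0.904 to 1.18). The gene pccb-1, with 389 counts in YBT7 and 268 in wild type (fold 0.968, 0.826 to 1.13), encodes the beta subunit of propionyl-CoA carboxylase, the enzyme that opens the canonical route of propionate breakdown. The alpha subunit gene pcca-1, which lies 109 kb from the left border, had 283 counts in YBT7 and 207 in wild type (fold 0.911, 0.759 to 1.1), so neither subunit gene differed beyond counting error.

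Other abundant genes moved in either direction. C07D8.6, which encodes an aldo-keto reductase, had 1053 counts in YBT7 and 1437 in wild type and was 2.05-fold lower (ratio 0.489, interval 0.451 to 0.529), which fell short of the limit for a call at its level. The lysosomal membrane glycoprotein gene lmp-1 had 827 and 759 counts (fold 0.726, 0.657 to 0.803), and T23F2.5 had 523 and 570 (fold 0.612, 0.542 to 0.690). In contrast, F48E3.4, named try-14 in the newer annotation, had 864 and 528 counts (fold 1.09, 0.978 to 1.22). The neighbours ZK813.3, ZK813.7 and ZK813.1, which lie on the plus strand with gaps of 2.34 kb between ZK813.3 and ZK813.7 and 0.917 kb between ZK813.7 and ZK813.1, had 1591, 1292 and 1489 counts in YBT7, against 592, 374 and 510 in wild type. Their folds of 1.79, 2.30 and 1.95 lay close together, and ZK813.7 passed the limit, though not with total counts.

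Under the same wild-type minimum, the linear genes lay between the internal X genes and the autosomal genes in their median. The 268 linear genes had a median log2 fold of -0.24 (quartiles -0.63 and 0.26), the 271 internal X genes -0.65 (-1.13 and 0.0526) and the 5439 autosomal genes -0.12 (-0.33 and 0.12). Of the linear genes 27 were called higher, of the internal genes 5.54% and of the autosomal genes 1.86%. Calls in the other direction went to 0.373% of the linear genes, 7.75% of the internal genes and 0.772% of the autosomal genes. Of the linear genes 45.1% lay within 0.5 of 0 on the log2 scale, of the internal genes 30.6% and of the autosomal genes 80.6%, though the sets differ in level, with median wild-type counts of 52, 50 and 206. From 20 to 49 counts the quartiles were -0.67 and 0.21 for linear and -0.39 and 0.48 for autosomal genes, a similar width. Internal genes had -1.15 and -0.0662 there. In every higher range the linear quartiles lay farther apart than the autosomal ones. From 50 to 99 counts they were -0.60 and 0.20, against -0.30 and 0.26. From 100 to 199 counts they were -0.57 and 0.13, against -0.34 and 0.11. With the called genes set aside the medians were -0.28 for 240 linear genes, -0.63 for 235 internal genes and -0.13 for 5296 autosomal genes. No test bears on these differences, and the order of the linear and the autosomal median turned when genes were chosen by a mean of at least 25 normalized counts in both libraries together (-0.0316 for 308 linear genes, -0.0963 for autosomal genes).

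**Figure D2:**
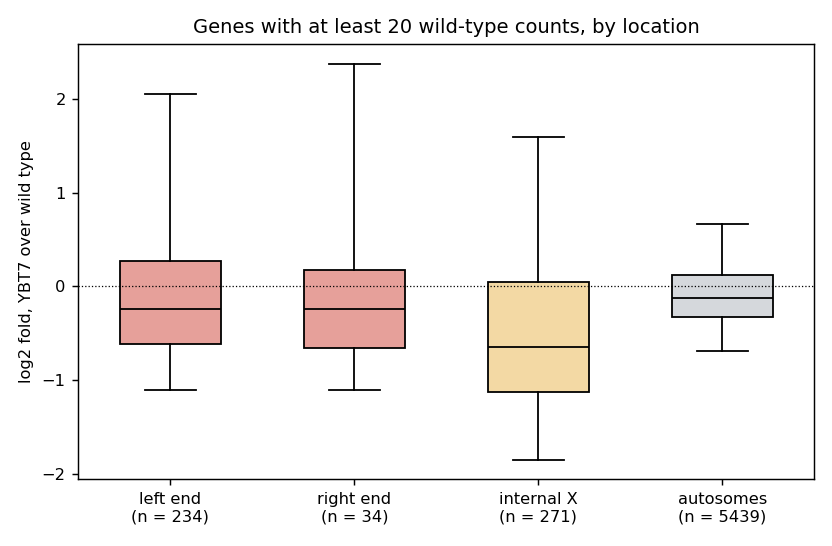
Log2 fold of YBT7 over wild type (vertical) as medians, quartile boxes and whiskers from the 5th to the 95th percentile, for genes with at least 20 wild-type counts on the left end, the right end, the internal X segment and the autosomes, 1 library per strain. The medians are -0.24, -0.24, -0.65 and -0.12 in that order, and the upper tail of both ends reaches farther than that of the autosomes (95th percentiles 2.06, 2.38, 1.6 and 0.67).

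The call requires a larger fold at a low count, so the genes were also taken by wild-type level. With 20 to 49 wild-type counts 13 of 127 linear genes were at least 2-fold higher in YBT7 (10.2%), beside 10.4% of autosomal genes in the same range. From 100 to 199 counts the share was 7.89% of linear, 22.6% of internal and 2.11% of autosomal genes. With 200 to 499 counts 7 of 20 linear genes were (35%), beside 0.477% of 1676 autosomal genes and 0 of 12 internal genes, and 6 of the 20 were called. These 6 were the vitellogenin genes vit-2, vit-3 and vit-5, act-4, ZK813.7 and the snoRNA gene C14E2.12. In the same range the internal genes had a median of -1.61, the linear genes 0.0248 and the autosomal genes -0.17. Among the 12 linear genes with at least 500 counts the 3 called higher were vit-4, F22H10.10 and C36C9.10. Below 200 counts the linear medians were -0.26, -0.26 and -0.33 in successive ranges. The ranges with 20 and 12 genes are thinly filled.

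**Figure D3:**
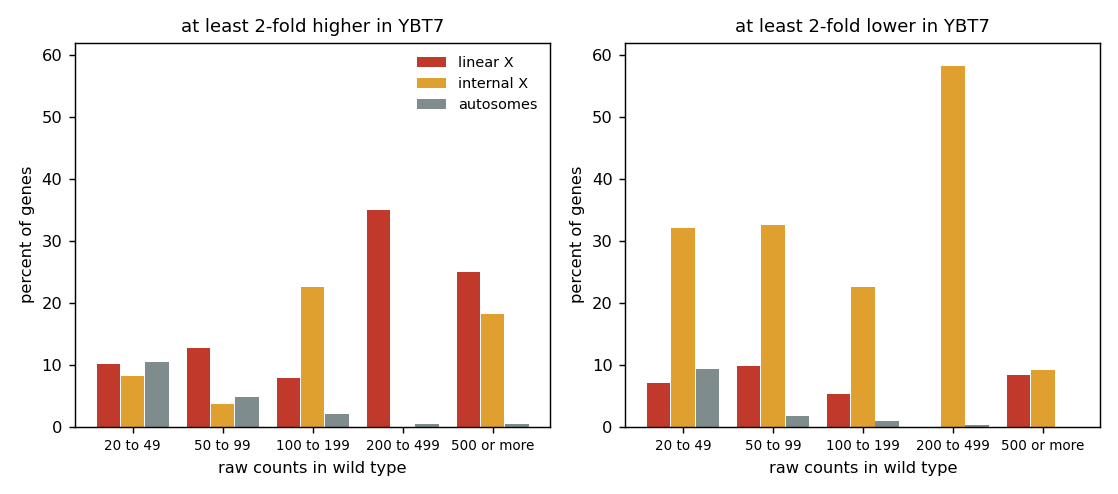
Genes at least 2-fold higher and at least 2-fold lower in YBT7, in percent of the genes in each range of wild-type counts (horizontal axis), for linear X, internal X and autosomes. The linear share that was higher lies near the autosomal one from 20 to 49 counts (10.2% and 10.4%) and above it from 200 to 499 counts (35% and 0.477%), where there are 20 linear genes.

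Counted in the other direction, the set of linear genes above the same level was larger in YBT7. At 24.5 normalized counts 308 of the 1299 protein-coding linear genes were reached in YBT7 and 261 in wild type, 233 of them in both, 75 in YBT7 alone and 28 in wild type alone. On the internal segment 70 genes were reached in YBT7 alone and 68 in wild type alone, and on the autosomes 479 and 135. The ratio of these numbers was 2.68 for linear genes, 1.03 for internal genes and 3.55 for autosomal genes. On the left end 68 genes were reached in YBT7 alone and 22 in wild type alone, and on the right end 7 and 6.

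The largest rises were in yolk genes and in genes for lysosomal enzymes and antimicrobial peptides. Vitellogenins are lipid-carrying yolk precursors that the intestine makes and oocytes take up, and 5 of the 6 genes lie on the left end. The gene vit-2 had 7177 counts in YBT7 and 329 in wild type, 14.5-fold (interval 13 to 16.3), and vit-3, vit-4 and vit-5 had 7607, 7916 and 7045 counts in YBT7, against 374, 566 and 410 in wild type, 13.6-, 9.32- and 11.5-fold. The gene vit-1 had 3255 and 169 counts, 12.8-fold. All 5 had more counts in YBT7 than any protein-coding gene of the set had in wild type. Reads shared between these near-identical copies could be split between them, so the value of a single copy is uncertain.

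Of the 6 genes on the list for lysosome and protein breakdown 4 rose. The cathepsin B-like protease gene cpr-6 had 1357 counts in YBT7 and 27 in wild type, the largest fold of the set at 33.5 (22.9 to 51). The cathepsin D-like aspartyl protease gene asp-3 had 1813 and 79 counts, 15.3-fold (12.2 to 19.4). The saposin-like genes spp-5 and spp-3, of a family of antimicrobial peptides, had 1236 and 986 counts in YBT7, against 37 and 45 in wild type, 22.3- and 14.6-fold. The lysozyme gene ilys-5 had 1926 counts in YBT7 and 61 in wild type, 21-fold. The other genes on the list, lmp-1 and vha-15, were not called, and spp-3 is on none. The vitellogenin, protease, saposin-like and lysozyme genes hold the 9 largest folds of the set, and all of them lie on the left end. The intestine, which is not part of the gonad, is the known site of yolk synthesis, and its marker list moved the same way, with 11 of 15 genes called higher. The part of intestinal RNA in these folds was not tested, and it cannot be told apart here from RNA of the gonad.

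Some muscle and cuticle genes rose as well, and others of the set did not. The muscle myosin light chain genes mlc-2 and mlc-1, which lie 2.57 kb apart on the right end, had 368 and 404 counts in YBT7, against 52 and 84 in wild type, 4.72- and 3.21-fold. The actin gene act-4 had 2037 counts in YBT7 and 355 in wild type, 3.83-fold (3.42 to 4.29), and actin copies share much of their sequence. The troponin T gene mup-2, with 305 and 134 counts and a log2 fold of 0.60, was not called. The profilin gene pfn-2 (160 and 58 counts, 0.88) and the nonmuscle myosin gene nmy-1 (129 and 109, -0.34) were not called either, so act-4 was the only call among 6 cytoskeleton genes. The adult cuticle collagen gene col-19 had 719 counts in YBT7 and 61 in wild type and rose 7.86-fold, the only call among 4 genes for matrix and cuticle, where the chitinase gene cht-1 (82 and 47 counts) had a log2 fold of 0.22 and the glypican gene lon-2 (29 and 23) -0.25. Of the 27 genes called higher, 8 are on lists of somatic tissue markers (the 5 vitellogenins, mlc-1, mlc-2 and col-19) and 19 are not. Without the 9 marker genes in the set 19 of 259 genes were called higher. With the 8 called marker genes and the 4 small noncoding RNA genes left out, 16 of 256 were. The list of intestine markers has 0 genes in the set, so cpr-6, asp-3, spp-3, spp-5 and ilys-5 stay in both counts, as does act-4.

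Of the 4 genes on the list for translation 2 rose, and of the 8 for energy metabolism 2 rose, with list medians of 0.84 and 0.23. The ribosomal protein genes rpl-11.2 and rpl-25.1, each of which has a close paralog, had 1039 and 534 counts in YBT7, against 191 and 86 in wild type, 3.63- and 4.14-fold, while the translation factor genes ife-2 and ife-4, of the cap-binding eIF4E family, had log2 folds of -0.17 (109 and 82 counts) and -0.92 (34 and 43 counts). The glycolytic enzyme GAPDH is encoded on the left end by gpd-2 and gpd-3, which had 595 and 410 counts in YBT7, against 140 and 99 in wild type, 2.83- and 2.76-fold. They lie downstream of mai-1, for an inhibitor of the mitochondrial ATPase, in an operon, and mai-1, which overlaps gpd-2 on the same strand, had 31 counts in YBT7 and 20 in wild type (fold 1.03, interval 0.571 to 1.91). Both gpd copies are near-identical, so reads could be shared between them. The phosphofructokinase gene pfk-1.1, for an earlier step of glycolysis, had 160 counts in YBT7 and 125 in wild type (-0.23). The ATP synthase subunit genes asb-2 (364 and 190 counts, log2 fold 0.35) and asg-2 (284 and 186 normalized, 0.61) and the vacuolar ATPase subunit genes vha-12 (315 and 192, 0.13) and vha-15 (188 and 70, 0.84) were not called.

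The remaining genes called higher on the left end were tag-18 (109 counts in YBT7 and 21 in wild type, 3.46-fold, lost when YBT7 was thinned to the wild-type depth), T23F2.3 (146 and 27, 3.60-fold) and F47B7.1, named pmpl-1 in the newer annotation (157 and 25, 4.19-fold). F46H5.3 had 1525 counts in YBT7 and 459 in wild type, 2.21-fold, and passed the limit with TMM scaling alone. Below the limit 8 genes were at least 2-fold higher, F46H5.3, C44C1.1, F49H12.5, ttr-42, C15C7.5, lron-7, the fatty-acid-binding protein gene lbp-3 (109 and 28 counts, 2.60-fold, 1.70 to 4.08) and apl-1, the gene of the amyloid precursor-like protein (155 and 44 counts, 2.35-fold, 1.67 to 3.36).

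The lists for secretion, signalling and chromatin held no called gene, and their medians lay near the -0.24 of the whole set, of which 64.2% lay below 0. On the list for vesicle transport 0 of 10 genes were called, with a median log2 fold of -0.19 and a range of -0.80 to 0.22. The cargo receptor gene sft-4 had 320 counts in YBT7 and 214 in wild type (log2 fold -0.00450), and aps-2, for a small subunit of the clathrin adaptor AP-2, had 125 and 107 (-0.36). The 5 genes for chaperones had a median of -0.0433 with no call, from dnj-14 (91 and 93 counts, -0.62) to the small heat shock protein gene hsp-25 (153 and 59, 0.79). The 5 lipid genes had a median of -0.0544 with no call, among them the ceramide synthase gene hyl-2 (91 and 63 counts, -0.0544) and pcyt-1, for a step of phosphatidylcholine synthesis (80 and 33, 0.69). A list of 10 genes for entry and folding in the endoplasmic reticulum, chosen after their values were seen, had a median of -0.0239 and no call either. Of the 14 signalling genes none was called, 11 lay below 0 and the median was -0.30. Examples are the kinase gene hpk-1 (153 counts in YBT7 and 97 in wild type, 0.0725), the PDK1-type kinase gene pdk-1 (110 and 90, -0.30) and the arrestin gene arr-1 (106 and 111, -0.65). The 4 chromatin and transcription genes had a median of -0.25 and no call. They were the homeobox gene ceh-21 (128 and 97 counts, -0.18), the zinc finger gene lsy-2 (97 and 76, -0.23), nhr-1 (79 and 63, -0.26) and the cohesin gene coh-1 (29 and 24, -0.31). On the list of transporters the innexin gene inx-3 had 209 and 205 counts (-0.56) and the aquaporin gene aqp-7 275 and 102 (0.85). The zinc transporter gene cdf-1 had 60 and 42 counts (-0.0704), and the list's median was -0.31 with 0 of 4 called. A further 192 genes of the set are on no list of roles, 17 of them called higher and 1 lower, with a median of -0.26.

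The linear segment carries genes that count X chromosomes in the early embryo, where the products of X signal elements repress xol-1 and so help to set hermaphrodite fate. The ONECUT homeobox gene ceh-39 had 86 counts in YBT7 and 36 in wild type (log2 fold 0.67, fold interval 1.07 to 2.42). The gene fox-1, for an RNA-binding protein that acts on xol-1 splicing, had 59 and 48 counts (-0.29, interval 0.550 to 1.23). Neither was called.

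Among genes for RNA and germ granules, which assemble RNA and protein in germ cells, 0 of 5 were called and the median was -0.54. The genes meg-3 and meg-4, for intrinsically disordered proteins of germ granules in the early embryo, had 189 and 121 counts in YBT7, against 203 and 117 in wild type, with folds of 0.621 (interval 0.506 to 0.760) and 0.689 (0.530 to 0.897). The microRNA silencing factor gene ain-1 had 135 and 132 counts (0.532 to 0.873). The gene puf-9, for a Pumilio-family RNA-binding protein, had 69 and 32 counts and a log2 fold of 0.52. Outside that list nrde-3, the nuclear Argonaute that carries small RNAs in somatic cells, had 93 counts in YBT7 and 102 in wild type (log2 fold -0.72, interval 0.454 to 0.813). The gene for the double-stranded RNA import kinase, sid-3, had 48 and 46 counts (-0.52). In a group of 5 small RNA genes formed after the values were seen, all 5 lay below 0, beside 64.2% of the set.

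**Figure D4:**
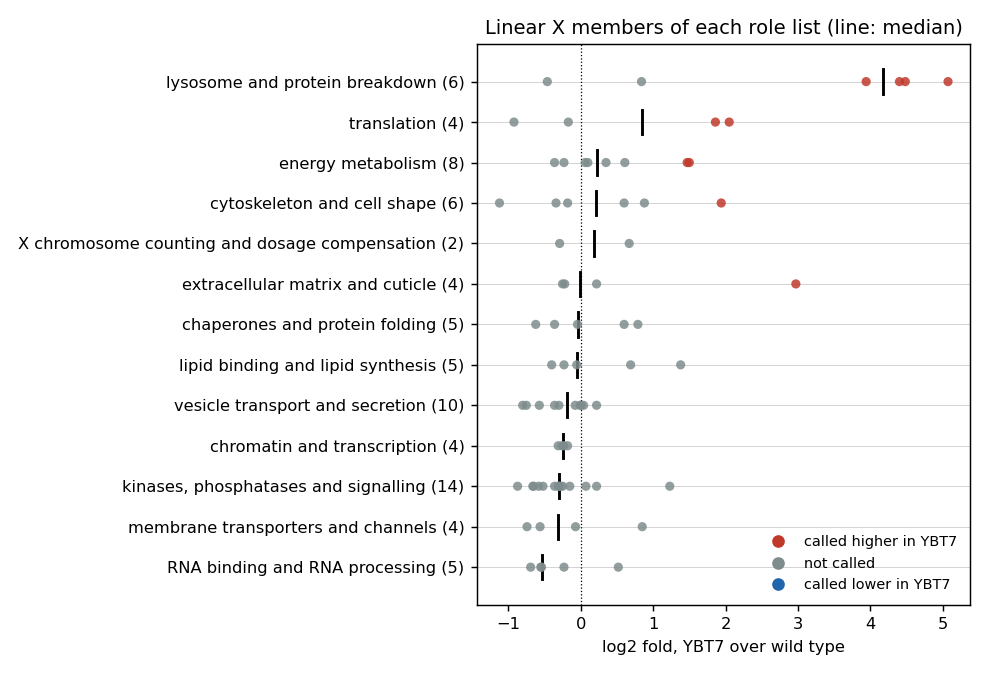
Log2 fold of YBT7 over wild type (horizontal axis) for the genes on each list of roles, 1 point per gene, with a vertical bar at each list's median, a dotted line at 0 and the number of genes in parentheses. The lysosome list has a median of 4.17, whereas the signalling, chromatin and RNA lists have medians of -0.30, -0.25 and -0.54 and no called gene.

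K09C4.10 on the left end was the only gene called lower, with 21 counts in YBT7 and 52 in wild type, 3.71-fold lower (ratio 0.269, interval 0.154 to 0.455). A further 18 genes were at least 2-fold lower without a call, most of them at low counts. Examples with intervals well below 1 are the MAP kinase kinase gene sek-3 (45 and 76 counts, log2 fold -1.34, fold interval 0.267 to 0.578) and spc-1, the alpha-spectrin gene of the membrane skeleton (67.0 and 146 normalized counts, -1.12, interval 0.342 to 0.614). The endosomal genes rme-6 (25 and 38 counts, -1.19) and vps-41 (26 and 36, -1.05) were also among them. Thinned to the wild-type depth, YBT7 gave 3 genes called lower, F13C5.1 and F47G3.3 besides K09C4.10.

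The right end was small and differed little from the left end in its median. Its 34 genes had a median log2 fold of -0.24, with 5 called higher (14.7%) and 0 lower, and the 234 genes of the left end had the same median, with 22 called higher (9.40%) and 1 lower. The right end held 9163 counts in YBT7 and 3340 in wild type (0.202% and 0.116% of the library), the left end 137534 and 44153 (3.04% and 1.54%). F22H10.10 alone had 5083 of these counts in YBT7 and 1159 in wild type. The highest fold of the right end was that of F22H10.3, a gene with 240.0 exonic bases that lies 164 kb from the border, with 367 counts in YBT7 and 25 in wild type, 9.79-fold (6.52 to 15.3). The gene osm-11, for a secreted co-ligand of Notch receptors, had 364 and 39 counts and rose 6.22-fold (4.46 to 8.89).

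Besides these genes, F22H10.10, mlc-1 and mlc-2, no gene of the right end was called. The acyl-CoA dehydrogenase genes acdh-7 and acdh-10, for fatty acid oxidation, had 215 and 183 counts in YBT7, against 125 and 120 in wild type, log2 folds of 0.20 and 0.0238. The AMP-activated kinase genes aak-2, the catalytic subunit, and aakg-2, a gamma subunit, had 121 and 56 counts in YBT7, against 101 and 34 in wild type, -0.32 and 0.13. From the energy metabolism list dhs-30 had 75 counts in YBT7 and 64 in wild type (-0.36), and the trehalose phosphate synthase gene tps-1 had 22 and 25 (-0.77). The cyclase-associated protein gene cas-1, which acts on actin, had 271 counts in YBT7 and 204 in wild type (-0.18). The lowest fold of the right end was that of K09E3.7, with 22 and 41 counts (-1.48), and F39F10.3 (61 and 95, -1.22), ptrn-1 (37 and 51, -1.05), for a protein of microtubule minus ends, and fbxa-120 (28 and 38, -1.03) were also at least 2-fold lower.

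Calls on the left end occurred in every 1 Mb window. The 5 calls on the right end lay in 2 places, at 164 and 184 kb and from 906 to 945 kb from the border. None of the 4 genes of the right end beyond 1 Mb was called. In 1 Mb windows of the left end the number of genes ran from 24 to 36 and the median log2 fold from -0.36 to 0.13, and 8 of the 22 calls lay between 3 and 4 Mb. That window holds gpd-2, gpd-3, vit-3, vit-4, vit-5, ZK813.7, tag-18 and F47B7.1. Within 1 Mb of the left border 30 genes had a median of 0.10 with 4 called higher, and beyond 4 Mb 112 genes had a median of -0.26 with 11 called higher and 1 lower. Spearman's rho of log2 fold and distance to the border was -0.15 on the left end (n = 234) and -0.0133 on the right end (n = 34), given as a description because the genes share the same pair of libraries.

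**Figure D5:**
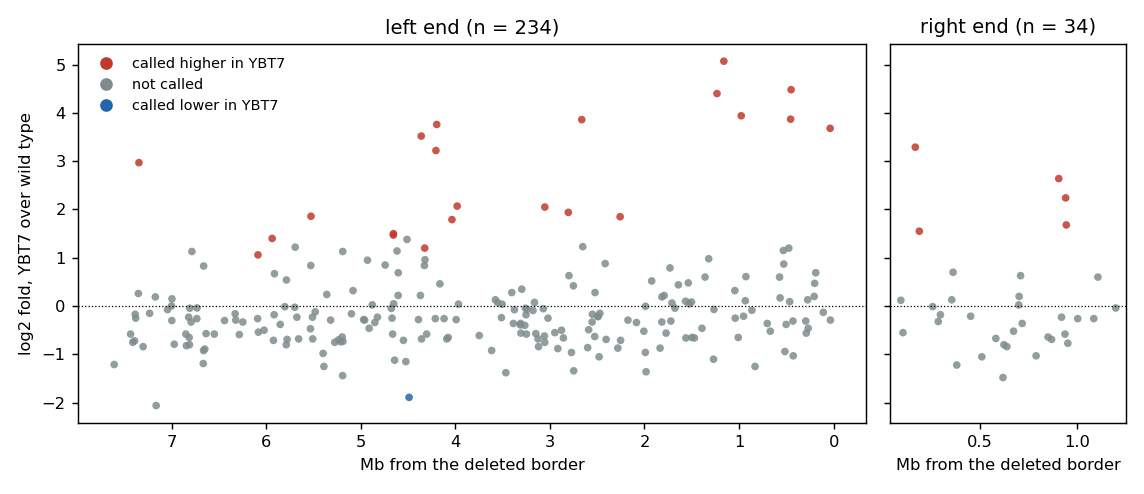
Log2 fold of YBT7 over wild type (vertical) against distance from the border of the linear segment in Mb (horizontal), with the left and the right end in separate panels and 1 point per gene. Genes called higher occur at all distances on the left end, and the medians are 0.10 within 1 Mb of the border and -0.26 beyond 4 Mb.

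The genes that rose often lay beside others that were not called. Within 20 kb of a gene called higher lay 37 genes that were not, and their median log2 fold was -0.26 (range -1.12 to 1.23, 26 of 37 below 0), while the 204 genes farther away had a median of -0.29 (146 below 0). Both groups leave out the genes called higher, so these medians cannot show whether rises cluster. The actin-binding protein gene unc-78 ends 59 bases from vit-5 and had 61 counts in YBT7 and 65 in wild type (log2 fold -0.68), and set-12, the gene of a predicted histone methyltransferase 31 bases from vit-1, had 27 and 22 (-0.29). The gene glit-1, 98 bases from rpl-25.1, had 41 and 46 counts (-0.75), and meg-4 lies 1066 bases from C36C9.10. Of the 27 genes called higher, 13 lay within 50 kb of another and 8 within 5 kb. The same shares were not computed for uncalled genes, so nothing is read from these numbers. At the junction of the ends the nearest genes of the set were set-12 and vit-1 on the left, 33.5 and 36.4 kb from the border, and F59C12.4 (139 normalized counts in YBT7 and 127 in wild type, log2 fold 0.12) and ain-1 on the right, 88.6 and 99.7 kb from it. Of these 4, vit-1 alone was called.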

How the data were processed

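RNA of dissected gonads was primed with poly(T) and amplified by in vitro transcription, 1 library per strain. Per the labels and the submitters' processing notes, the authors trimmed reads with cutadapt (1.12), aligned them to WBcel235 with TopHat2 (2.1.1), counted them per gene with HTSeq (0.6.0) and normalized with DESeq2 (1.12.4). The deposited table gives raw counts per gene, which were used here. Its columns of normalized values, fold changes and calls of the authors were not used. Collapsing of molecular identifiers is not given in the sources used here.

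Counts were divided by median-of-ratios size factors. Calls followed the limit of the study's methods, which falls as the mean of both libraries grows, for genes whose mean exceeds 5. Fold intervals are exact conditional 95% intervals and shares have exact Clopper-Pearson intervals, both for counting error only. A count of 0 allows up to 3 counts (0.663 CPM in YBT7, 1.04 in wild type). With 1 library per strain no p-value was computed. Scripts were tested on simulated data. Newer names, biotypes and exonic lengths came from an Ensembl 115 table, where all 268 identifiers matched and 16 had identical coordinates. Positions are therefore those of the deposited table, and exonic lengths may not match them. Of the genes, 15 overlap another gene with counts. By rule, the genes named were the 10 of the left and the 5 of the right end with most wild-type counts, the 10 called higher with the largest lower limit of the fold, any called lower, up to 4 per list of roles, 3 per end nearest the border, 3 on either side of the count minimum, and 5 with the narrowest interval within 0.1 of a log2 fold of 0. The other genes called, neighbours and further examples were picked after their values were seen. The rule, the gene lists and the comparisons were chosen with earlier results of these data known.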

Additional observations from a re-analysis of the deposited data

How the results depend on the processing

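Of 390 values for the 78 genes named by rule under other settings, 389 stayed on the same side of the limit, and C36C9.10 lost its call with total counts (log2 fold 0.99). The sign turned in 11 of the 390 values, for 7 uncalled genes within 0.0474 of 0 (sft-4, hsp-3, pccb-1, acdh-10, trap-2, mai-1 and got-2.2). Among genes named outside the rule, ZK813.7 lost its call with total counts and tag-18 with YBT7 thinned. F46H5.3 was called higher with TMM, and F13C5.1 and F47G3.3 were called lower with YBT7 thinned. The number called higher was 28 with TMM, 25 with total counts, 27 with autosomal size factors, 26 with YBT7 thinned and 27 with a pseudocount of 1. It was 40 of 357 genes with at least 10 wild-type counts, 19 of 141 with at least 50, and 66 of 308 with a mean of at least 25, where the choice rests on both libraries. The number 2-fold higher was then 64, 22 and 88. Called lower were 2 with at least 10 counts and 3 with YBT7 thinned, and 10 genes were 2-fold lower with at least 50 counts. The median log2 fold was -0.31 with total counts and -0.0316 with a mean of at least 25 (left end -0.31 and -0.0390). TMM and total counts shifted all log2 folds by 0.0502 and -0.0705. Without the 9 somatic marker genes 19 of 259 were called higher, with cpr-6, asp-3, spp-3, spp-5, ilys-5 and act-4, which are on no such list, still among them. It was 16 of 256 without the 8 called marker genes and the 4 small noncoding RNA genes, a setting chosen after seeing the data. The share of the library was 3.35% in YBT7 and 1.70% in wild type with at least 10 counts. With at least 50 it was 3.02% and 1.5%. With the vitellogenins left out of both the set and the denominator it was 2.54% and 1.59%. It was 2.47% and 1.58% without somatic markers, and 1.35% and 0.972% without the 5 most abundant genes. Also chosen after seeing the data, it was 1.82% and 0.949% without the small noncoding RNA genes, and 1.09% and 0.885% without these and the vitellogenins. The cause was not tested. At 20 to 49 counts a fold is imprecise, and 86 of 127 intervals spanned 1. No paired analysis was possible because each strain has 1 library.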
